A study of Homo sapiens with 120 samples.

Results

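The 8 genes described here are EGR1, EGR2, EGR3, NR4A1, NR4A2, NR4A3, IER2 and IER3, immediate early response factors listed by name and family. Of the 8, 7 have at least 1 probe set that the platform annotation assigns to that gene alone, and each is represented by the one of these with the highest mean over all arrays. EGR2 is not analysed here. Of these 7 genes, 6 reached the brightness limit set for testing (a log2 value of at least 6.18 in at least 3 arrays), among 14023 genes tested of 19775 genes with a probe set of their own. NR4A2 stayed under that limit in all 120 arrays, and its values are given separately.

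The arrays measured RNA of TK6 cells, an established human lymphoblastoid B cell line, exposed to 1 of 5 chemicals or left untreated. The doses of formaldehyde (FA), a reactive aldehyde that crosslinks DNA and protein, were 50, 100 and 200 µM. Those of methyl methanesulfonate (MMS), which methylates DNA, were 80, 160 and 320 µM. Ethyl methanesulfonate (EMS), which ethylates DNA, was used at 1, 2 and 4 mM. Colcemid (COL) and vincristine (VCR), which bind tubulin and disturb the mitotic spindle, are labelled 1, 2 and 4 µg/ml. Leading zeros in those labels leave the place of a decimal point open, so these doses are named by rank (lowest, middle or highest labelled) and their size is not relied on. Each chemical has its own set of 24 arrays: 3 doses and untreated cells, at 4 h and at 24 h, with 3 experiments in each of the 8 groups. Nothing else distinguishes the groups in the labels, and all are this single cell line, so the results describe that line.

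Immediate early genes are transcribed within minutes of a stimulus without new protein synthesis, and their messages are short-lived. EGR1, EGR2 and EGR3 are zinc finger transcription factors that bind GC-rich sites; EGR1 is a classical target of the ERK kinases through serum response factor (SRF) and its ETS-domain partners, and EGR2 and EGR3 are best known in lymphocytes for restraining antigen receptor signalling. NR4A1, NR4A2 and NR4A3 are orphan nuclear receptors induced by antigen receptor, cyclic AMP and stress signals. IER2 is a small nuclear protein of the immediate early class, and IER3 (IEX-1) is a stress and NF-κB target that modulates apoptosis and ERK signalling.

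The 250 bases upstream of the annotated start are shown for EGR1, NR4A3 and IER2, 1 member of each family, because EGR1 and IER2 rose together with FA and EGR1 and NR4A3 with the tubulin-binding agents; RefSeq (GRCh38.p14) gave an upstream entry for 5 of the 8 members, EGR1, EGR2, NR4A1, NR4A3 and IER2. All 3 lie on the plus strand and are written 5′ to 3′. Capitals mark CArG boxes (the SRF motif), the ETS core CCGGAA and the cyclic AMP response core TGACG, each searched on both strands. The EGR1 sequence is chr5:138465229-138465478, that of NR4A3 chr9:99821635-99821884 and that of IER2 chr19:13150161-13150410.
EGR1: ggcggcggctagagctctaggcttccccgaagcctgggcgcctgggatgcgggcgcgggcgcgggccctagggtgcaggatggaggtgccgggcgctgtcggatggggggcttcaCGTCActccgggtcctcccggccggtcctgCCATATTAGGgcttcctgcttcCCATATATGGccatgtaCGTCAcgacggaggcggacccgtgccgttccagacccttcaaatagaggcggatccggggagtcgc
NR4A3: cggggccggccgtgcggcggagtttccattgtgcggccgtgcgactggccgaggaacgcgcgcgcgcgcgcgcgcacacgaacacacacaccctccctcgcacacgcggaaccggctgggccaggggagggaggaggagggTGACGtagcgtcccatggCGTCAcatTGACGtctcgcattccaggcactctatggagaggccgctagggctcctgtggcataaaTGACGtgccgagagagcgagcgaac
IER2: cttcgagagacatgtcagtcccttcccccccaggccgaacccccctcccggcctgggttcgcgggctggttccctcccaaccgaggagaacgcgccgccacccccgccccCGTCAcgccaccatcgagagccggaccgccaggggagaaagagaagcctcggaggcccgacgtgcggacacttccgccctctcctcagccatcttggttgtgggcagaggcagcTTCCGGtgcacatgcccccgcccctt

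The EGR1 sequence holds 2 CArG boxes, whose bases lie 105 to 96 and 83 to 74 upstream of the start. It also holds 2 TGACG cores and, not in capitals, 1 match to the EGR site GCGNGGGCG, 198 to 190 bases upstream. The NR4A3 sequence holds 4 TGACG cores between 109 and 21 bases upstream and no CArG box. The IER2 sequence holds 1 CCGGAA core and 1 TGACG core. NR4A1, which also rose with FA and colcemid, has 2 windows that are not printed. They hold no CArG box, no TGACG core and no EGR site, and 1 of them holds 1 CCGGAA core. Over 34788 RefSeq promoter windows of the same length, 1.17% hold a CArG box, 14.5% CCGGAA, 21.2% TGACG and 8.41% the EGR site. The AP-1 site TGANTCA (6.59% of windows) and the NR4A monomer site AAAGGTCA (1.04%) had no match in the windows of EGR1, NR4A1, NR4A3 and IER2. A match describes letters only.

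The labelled cell type was checked first. Of 10 B cell markers, 9 had a probe set and 8, among them MS4A1, PAX5, CD79A and HLA-DRA, were above the brightness limit in every array, while CR2 was not. Among markers of other cell types, NKG7 (1 of 6 for T and NK cells) was above the limit in every array. So were CSF1R and S100A9 (2 of 6 for monocytes and granulocytes) and CDH1, KRT8 and COL1A1 (3 of 6 for epithelium and fibroblasts). CD8A, KLRD1, CD14, LYZ, MPO and EPCAM reached it in too few arrays to be tested. Array medians ran between 6.13 and 6.24, and no 2 arrays held identical values. The untreated FA array of experiment 3 at 4 h stood apart: its mean correlation with the other two arrays of its group, 0.993, was the lowest such value of the 120 arrays, and its ACTB 3′ minus 5′ difference, a sign of RNA quality, was 0.68 against 0.35 and 0.30 in the other two. Tested changes from that group are given with and without this array, and ranges of summed marker signals only with it. In bulk RNA, a change of level in all cells and a change in the share of cells that express the gene cannot be told apart.

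Changes are log2 differences of a treated group from the untreated group of the same set and time, with the standard error (SE) of the limma fit, and p-values are Benjamini-Hochberg adjusted over the 14023 genes of that comparison. A gene is called, and described as having risen or fallen, when its adjusted p is under 0.05. Nothing says that the 3 experiments came from separate starting cultures, so p-values measure the spread between these samples.

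The time at which members changed differed between chemicals and between members. With 200 µM FA the transcription factor EGR1 and the nuclear protein IER2 rose at 4 h, by 2.09 ± 0.14 and 1.46 ± 0.07 (SE, n = 3 each; adjusted p from limma = 2.73e-11 and 1.13e-13), and neither was called at 24 h. With the highest doses of MMS, EMS, colcemid and vincristine EGR1 rose at 24 h, by 2.73 ± 0.12, 0.92 ± 0.06, 1.84 ± 0.15 and 1.36 ± 0.13 (adjusted p = 2.69e-14, 4.89e-11, 5.38e-09 and 3.31e-08). At 24 h the apoptosis regulator IER3 rose with FA, colcemid and vincristine and fell with both alkylating agents, MMS and EMS.

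**Figure D1:**
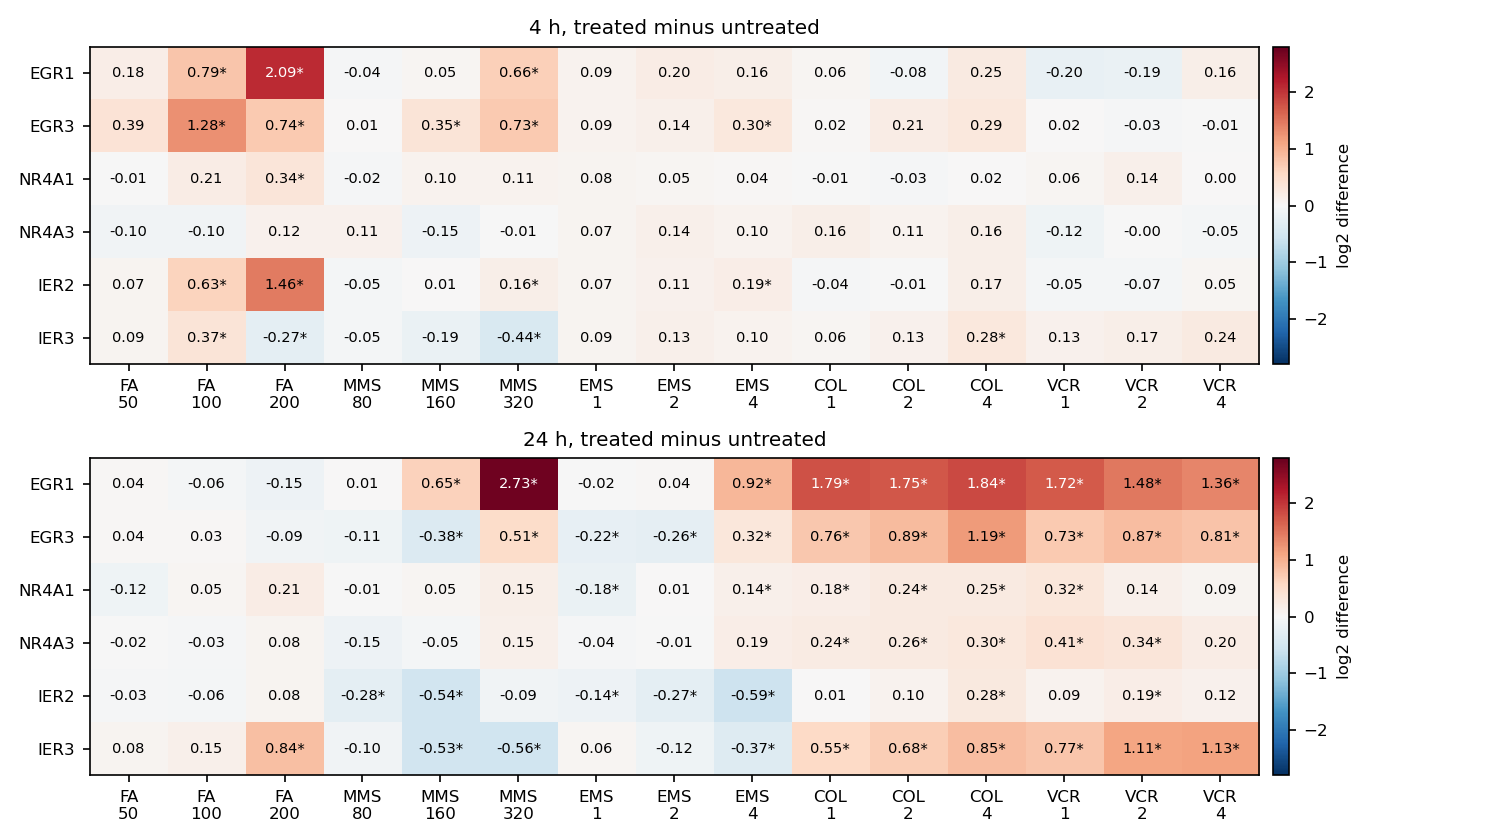
Log2 difference from untreated cells of the same set and time for the 6 tested members (rows) in the 30 treated groups (columns, chemical and dose in the units of the text), at 4 h above and 24 h below; an asterisk marks adjusted p under 0.05. EGR1 changed by 2.09 with 200 µM FA at 4 h and by -0.15 at 24 h, against 0.66 and 2.73 with 320 µM MMS.

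EGR1 had the widest range of group means of all members, 3.16 on the log2 scale. Across the 30 untreated arrays it lay between 5.70 and 7.44 with a median of 6.54. It rose with FA at 4 h only, and with MMS, EMS, colcemid and vincristine mainly or only at 24 h.

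With 100 µM FA at 4 h EGR1 was 6.88, 6.70 and 7.05 in experiments 1, 2 and 3, and with 200 µM 8.22, 8.05 and 8.26, against 6.16, 6.40 and 5.70 in untreated cells. Every array at 100 and 200 µM was above every untreated array. The change was 0.79 ± 0.14 at 100 µM (adjusted p = 6.88e-05) and 2.09 ± 0.14, or 4.26-fold, at 200 µM (adjusted p = 2.73e-11), and 0.18 ± 0.14 at 50 µM (adjusted p = 0.679). The 200 µM level exceeded the 100 µM level by 1.30 ± 0.14 (adjusted p = 7.97e-08; 34.9% of genes differed between these doses). Without the untreated array of experiment 3, the changes were -0.02 at 50 µM, not called, and 0.60 at 100 µM and 1.90 at 200 µM, both called. Summed signals of marker lists also stood apart with 200 µM FA at 4 h. Those of the B cell markers were 33023 to 33987 against 29708 to 31788 in untreated cells, those of the T and NK cell markers 696 to 766 against 566 to 607, and those of the monocyte and granulocyte markers 765 to 896 against 507 to 648. Of the last list CD14, LYZ and MPO were too dim to be tested, S100A8 reached the brightness limit in some arrays, and CSF1R and S100A9 were above it in every array. With 100 µM FA at 4 h the T and NK cell sums, 624 to 683, and the monocyte and granulocyte sums, 697 to 757, were also higher than in untreated cells. The epithelial and fibroblast sums were lower there, 1007 to 1087 against 1146 to 1201, and the B cell sums overlapped. Their part in the result was not tested. At 24 h EGR1 was 7.15, 7.19 and 7.12 with 200 µM FA against 7.29, 7.44 and 7.18 in untreated cells, an overlap, and its changes at the 3 doses, from -0.15 to 0.04, were not called.

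With 320 µM MMS EGR1 was 9.32, 9.32 and 9.10 at 24 h against 6.63, 6.51 and 6.40 in untreated cells. This was the highest group mean of EGR1 in the study, and the groups lay far apart: the change was 2.73 ± 0.12, or 6.64-fold (adjusted p = 2.69e-14). At 160 µM the change at 24 h was 0.65 ± 0.12 (adjusted p = 0.000114) and at 80 µM 0.01 ± 0.12. At 4 h it rose at 320 µM only, to 7.55, 7.26 and 7.05 against 6.71, 6.64 and 6.52 in untreated cells, by 0.66 ± 0.12 (adjusted p = 0.000171). That level exceeded the 160 µM level by 0.61 ± 0.12 (adjusted p = 0.00409, but 0.183 without experiment 1; 3.79% of genes differed between these doses). The ACTB 3′ minus 5′ difference was also high in the 320 µM MMS arrays at 24 h, 1.59 to 2.08 against 0.86 to 1.02 in untreated cells. It stood apart at 160 µM as well, 1.27 to 1.29, a group in which EGR1 rose and EGR3, IER2 and IER3 fell. At 320 µM and 24 h the summed signal of the B cell markers was lower, 16260 to 16904 against 24927 to 26281 in untreated cells, and so were those of the T and NK cell markers, 402 to 425 against 452 to 495, and of the epithelial and fibroblast markers, 844 to 931 against 943 to 1067. The B cell sum was also lower at 320 µM and 4 h, 26339 to 26860 against 27770 to 29148, where the other lists overlapped. Over all 120 arrays, with set means subtracted, the ACTB difference went with the level of EGR1 (Pearson's r = 0.55), NR4A1 (0.40), NR4A3 (0.37), IER2 (0.23), EGR3 (-0.03) and IER3 (-0.48), as a description of arrays that share doses and normalization. The part of RNA quality and of these markers in the results was not tested.

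With 4 mM EMS at 24 h EGR1 was 7.34, 7.56 and 7.52 against 6.60, 6.54 and 6.51 in untreated cells, with no overlap. It rose by 0.92 ± 0.06, or 1.90-fold (adjusted p = 4.89e-11), and was not called at 1 or 2 mM, with changes of -0.02 and 0.04. The ACTB difference was 0.64 to 0.70 with 4 mM at 24 h, against 0.45 to 0.59 in untreated cells. The summed signals of the B cell markers, 25802 to 26551 against 26945 to 28216, and of the T and NK cell markers, 472 to 511 against 528 to 559, were lower there. Their part in the result was not tested. At 4 h no EMS dose gave a call, the largest change being 0.20 ± 0.06 at 2 mM (adjusted p = 0.168).

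EGR1 rose with colcemid and vincristine at 24 h at every dose. In the colcemid set it was 7.003, 7.19 and 7.05 in untreated cells, 8.63, 9.20 and 8.78 at the lowest, 8.89, 8.94 and 8.65 at the middle and 8.97, 9.11 and 8.67 at the highest labelled dose. The 3 dosed groups overlapped each other and stood clear of the untreated arrays, with changes of 1.79 ± 0.15, 1.75 ± 0.15 and 1.84 ± 0.15 (adjusted p = 7.41e-09, 9.73e-09 and 5.38e-09). With vincristine it was 8.94, 9.06 and 8.82 at the lowest and 8.60, 8.77 and 8.37 at the highest labelled dose, against 7.07, 7.36 and 7.23 in untreated cells. The lowest dosed vincristine array was still above the highest untreated one, and the changes were 1.72 ± 0.13, 1.48 ± 0.13 and 1.36 ± 0.13 from lowest to highest dose (adjusted p = 1.06e-09, 1e-08 and 3.31e-08). The summed signal of the B cell markers was higher at these doses, 30344 to 30721 with the highest of colcemid against 28327 to 29207 in untreated cells and 29153 to 29874 with that of vincristine against 27810 to 28901. With colcemid the T and NK cell markers were lower, 565 to 616 against 628 to 677, the monocyte and granulocyte markers higher, 506 to 538 against 438 to 497, and the epithelial and fibroblast markers higher, 1076 to 1117 against 1010 to 1013; their part in the results was not tested. At 4 h neither agent gave a call for EGR1, with changes between -0.20 and 0.25. In order of group means, 320 µM MMS at 24 h came first at 9.25 ± 0.13 (SD, n = 3), followed by the vincristine and colcemid groups at 24 h between 8.94 and 8.58, which overlap their neighbours, then 200 µM FA at 4 h at 8.18 ± 0.11 and 4 mM EMS at 24 h at 7.47 ± 0.12.

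**Figure D2:**
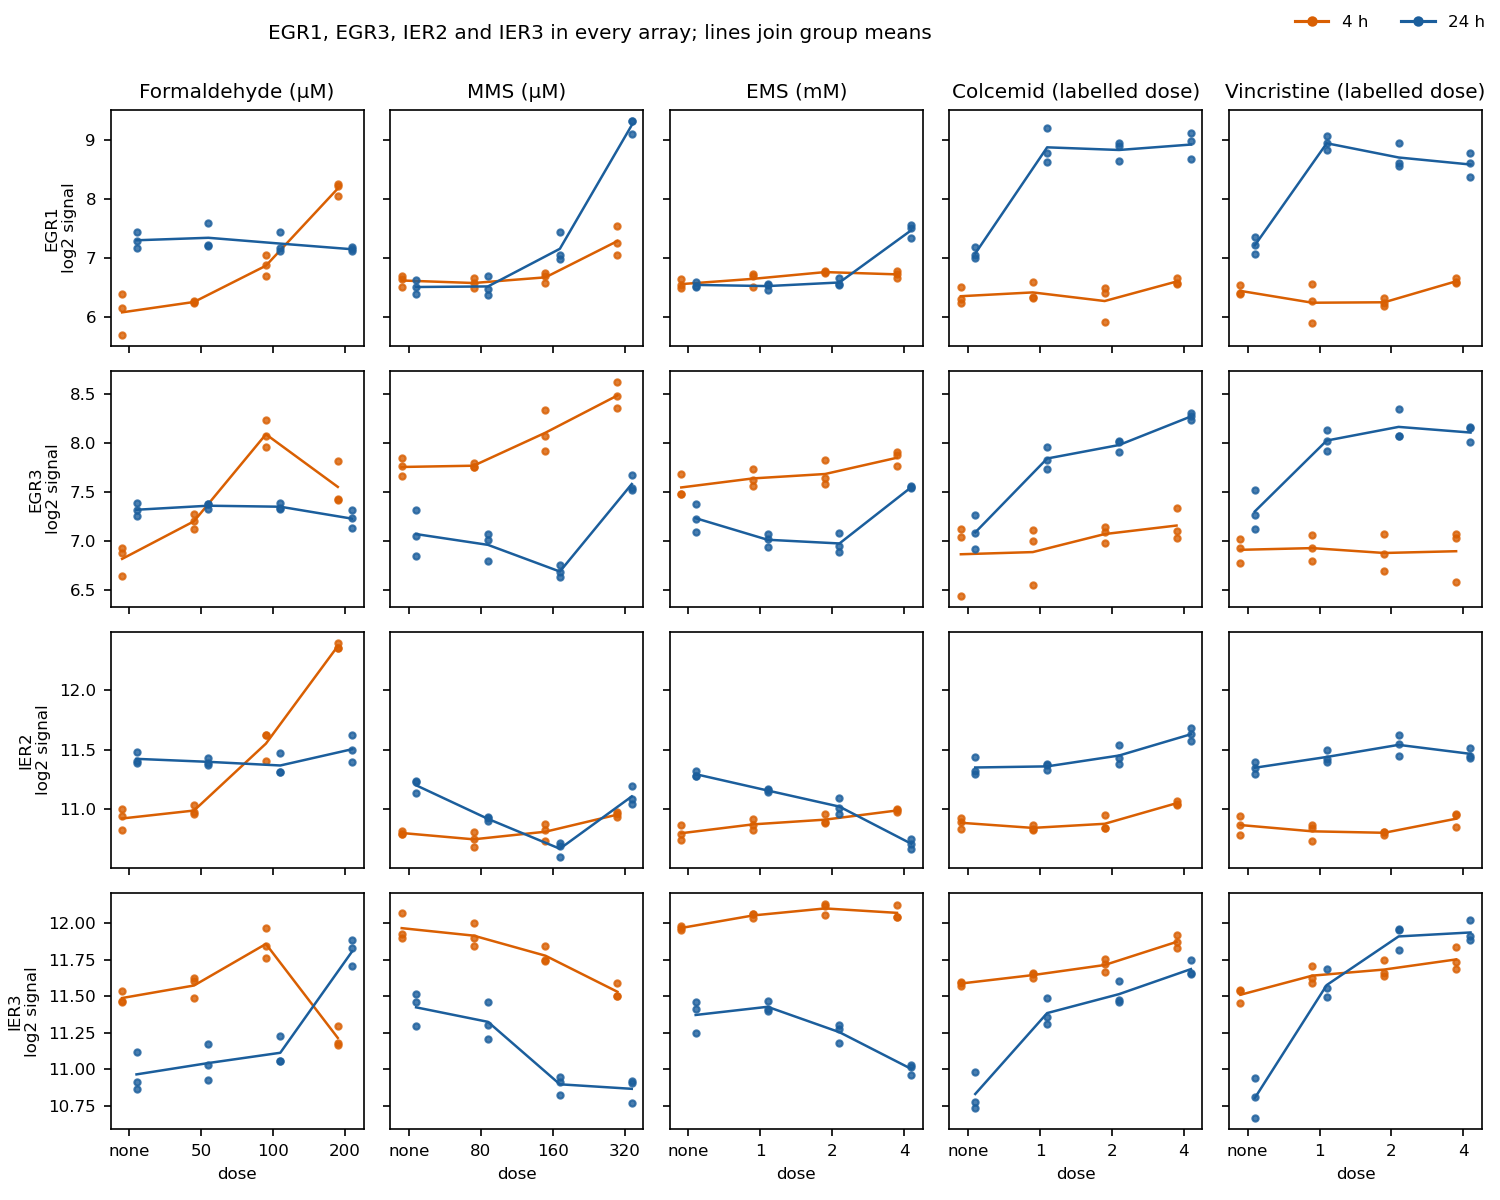
Log2 signal of EGR1, EGR3, IER2 and IER3 in each array (points) by dose, with lines through the group means, at 4 h (orange) and 24 h (blue), 1 column of panels per chemical; "none" is untreated. EGR1 reached 8.05 to 8.26 with 200 µM FA at 4 h and 9.10 to 9.32 with 320 µM MMS at 24 h, and IER2 reached 12.36 to 12.40 with 200 µM FA at 4 h.

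EGR1 has other probe sets of its own, which were dimmer, with means of 5.89 and 5.37 against 7.13, and moved less. With 200 µM FA at 4 h they rose by 0.70 ± 0.10 and 0.91 ± 0.09 (adjusted p over all single-gene probe sets = 9.98e-06 and 3.17e-08), and with 320 µM MMS at 24 h by 0.79 ± 0.15 and 1.57 ± 0.19 (adjusted p = 0.000109 and 2.97e-07). Without the untreated FA array that stood apart the FA values were 0.75 and 0.84, both called. In these comparisons the direction was shared and the size was not, so each fold change belongs to its probe set. At 100 µM FA and 4 h, without that array, the other probe sets changed by 0.32 ± 0.11 and 0.25 ± 0.09. Neither was called there (adjusted p from limma over all single-gene probe sets = 0.0527 and 0.0663). Over the 30 dose comparisons 5 calls were lost with 1 of them and 2 with the other. All 3 EGR1 probe sets carry the suffix that marks probes shared by several transcripts.

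EGR3 rose with FA and MMS already at 4 h, peaked at the middle FA dose, and rose with both tubulin-binding agents at 24 h; at 24 h it fell with 160 µM MMS and with 1 and 2 mM EMS and rose with 320 µM MMS and 4 mM EMS. Its untreated arrays lay between 6.43 and 7.85, with a median of 7.17, and its group means spanned 1.80.

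With FA at 4 h EGR3 was 8.23, 8.08 and 7.96 at 100 µM and 7.81, 7.43 and 7.42 at 200 µM, against 6.93, 6.87 and 6.64 in untreated cells. All dosed arrays at 50, 100 and 200 µM lay above the untreated ones. The changes were 1.28 ± 0.09, or 2.42-fold, at 100 µM (adjusted p = 4.98e-10) and 0.74 ± 0.09 at 200 µM (adjusted p = 8.24e-07). The 200 µM level was below the 100 µM level by 0.54 (change of -0.54 ± 0.09, adjusted p = 6.86e-05), the opposite direction to EGR1. At 50 µM the change was 0.39 ± 0.09 (adjusted p = 0.0508), and 0.0140 with the experiment number as a block. Without the untreated array of experiment 3 the changes were 0.30, 1.19 and 0.65 from low to high dose, the last 2 called. The marker sums given with EGR1 for 100 and 200 µM FA at 4 h moved as well, and their part in the result was not tested. At 24 h no FA dose gave a call for EGR3.

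With MMS at 4 h EGR3 was 8.48, 8.63 and 8.36 at 320 µM against 7.85, 7.66 and 7.76 in untreated cells, which did not overlap. It rose by 0.73 ± 0.11 (adjusted p = 1.62e-05), and by 0.35 ± 0.11 at 160 µM (adjusted p = 0.0309), a call lost without experiment 1 (0.349) and without experiment 2 (0.156). At 24 h it was 6.68, 6.63 and 6.75 at 160 µM and 7.67, 7.53 and 7.55 at 320 µM, against 7.05, 7.31 and 6.85 in untreated cells. It thus fell at 160 µM, by 0.38 (change of -0.38 ± 0.11, adjusted p = 0.00501, but 0.168 without experiment 2), and rose at 320 µM by 0.51 ± 0.11 (adjusted p = 0.000265). The 320 µM level exceeded the 160 µM level by 0.90 ± 0.11 (adjusted p = 6.91e-07; 40% of genes differed between these doses).

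EMS gave the same order at 24 h. EGR3 was 6.89, 7.08 and 6.95 at 2 mM and 7.54, 7.55 and 7.56 at 4 mM, against 7.38, 7.09 and 7.23 in untreated cells. The changes were -0.22 ± 0.08 at 1 mM (adjusted p = 0.044), -0.26 ± 0.08 at 2 mM (adjusted p = 0.0127) and 0.32 ± 0.08 at 4 mM (adjusted p = 0.00157), and 4 mM exceeded 2 mM by 0.58 ± 0.08 (adjusted p = 5.1e-06; 36.9% of genes differed). The falls were lost without experiment 1 (adjusted p = 0.224 at 1 mM and 0.204 at 2 mM) and without experiment 3 (0.304 and 0.128). They were also lost in 1 fit of all arrays (limma adjusted p = 0.191 and 0.0882). Without the brightness filter the 1 mM fall was lost (0.0669). At both doses the B cell marker sums were higher, 29993 to 30327 and 29829 to 30689 against 26945 to 28216 in untreated cells. The monocyte and granulocyte and the epithelial and fibroblast sums were higher as well, and the T and NK cell sums overlapped. Their part in the result was not tested. At 4 h EGR3 rose by 0.30 ± 0.08 at 4 mM (adjusted p = 0.0151), not called without experiment 2 (0.170) or 3 (0.158).

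With colcemid at 24 h EGR3 was 8.28, 8.31 and 8.23 at the highest labelled dose against 7.08, 7.27 and 6.92 in untreated cells, with no overlap. The changes were 0.76 ± 0.15, 0.89 ± 0.15 and 1.19 ± 0.15 from low to high dose (adjusted p = 0.000342, 5.75e-05 and 2.02e-06). With vincristine it was 8.01, 8.15 and 8.16 at the highest labelled dose against 7.12, 7.52 and 7.26 in untreated cells. The changes were 0.73 ± 0.13, 0.87 ± 0.13 and 0.81 ± 0.13 (adjusted p = 8.34e-05, 1.11e-05 and 2.53e-05). At 4 h neither agent gave a call for EGR3.

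NR4A1 and NR4A3 spanned a narrower range than the other tested members. NR4A1, the best studied of them in lymphocytes, was detected in all 120 arrays at 7.19 to 7.996, with group means that spanned 0.60, and NR4A3 reached the brightness limit in 48 of 120 arrays with group means that spanned 0.56.

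With 200 µM FA at 4 h NR4A1 was 7.76, 7.96 and 7.93 against 7.61, 7.48 and 7.52 in untreated cells. The groups did not overlap, and the rise was 0.34 ± 0.09, or 1.27-fold (adjusted p = 0.00402), but 0.0518 without experiment 3; without the untreated array that stood apart it was 0.33 (adjusted p = 0.0137). At 100 µM the change was 0.21 ± 0.09 (adjusted p = 0.0734, 0.0450 with the experiment block and 0.143 without that array), and at 200 µM and 24 h 0.21 ± 0.09 (adjusted p = 0.0657, and 0.0400 with the block). With 320 µM MMS at 24 h it changed by 0.15 ± 0.07 (adjusted p = 0.0505, and 0.0180 with the block).

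With colcemid at 24 h NR4A1 was 7.72, 7.81 and 7.77 at the highest labelled dose against 7.42, 7.62 and 7.50 in untreated cells. It rose by 0.18 ± 0.07, 0.24 ± 0.07 and 0.25 ± 0.07 from low to high dose (adjusted p = 0.0401, 0.00641 and 0.0057). Without single experiments these calls were lost: at the lowest dose without any of the 3 (0.279, 0.0540 and 0.135), at the middle dose without experiment 3 (0.0834), and at the highest without experiment 1 (0.0507). With vincristine at the lowest labelled dose it was 7.85, 7.76 and 7.996 against 7.44, 7.62 and 7.59 in untreated cells, a rise of 0.32 ± 0.07 (adjusted p = 0.000841), and the higher doses were not called, with 0.14 and 0.09. EMS at 24 h gave -0.18 ± 0.05 at 1 mM (adjusted p = 0.0183) and 0.14 ± 0.05 at 4 mM (adjusted p = 0.0429). Neither call held without each experiment in turn: at 1 mM the adjusted p was 0.152, 0.0895 and 0.0706 without experiments 1, 2 and 3, and at 4 mM 0.270 and 0.175 without experiments 2 and 3. Marker sums moved as well, as given with EGR3 for 1 mM and with EGR1 for 4 mM. Their part in the result was not tested.

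Other probe sets of NR4A1 gave other sizes. With 200 µM FA at 4 h 1 of them rose by 0.47 ± 0.07 (adjusted p over all single-gene probe sets = 3.88e-05) and the other changed by 0.14 ± 0.08 (adjusted p = 0.195); without the untreated array that stood apart these were 0.51, called, and 0.15, not called. With the highest labelled dose of colcemid at 24 h both changed by 0.02 ± 0.07, and with the lowest of vincristine by -0.02 ± 0.10 and -0.01 ± 0.08. The NR4A1 rises with these doses at 24 h are therefore those of 1 probe set, of the kind that may hold probes shared with other genes. The probe set that rose by 0.47 with FA is also of that kind, and the one that changed by 0.14 is not.

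NR4A3 rose with the tubulin-binding agents at 24 h in its brightest probe set. With vincristine at the lowest labelled dose it was 6.46, 6.51 and 6.57 against 6.18, 5.88 and 6.25 in untreated cells, a rise of 0.41 ± 0.09, or 1.33-fold (adjusted p = 0.000793). At the middle dose it rose by 0.34 ± 0.09 (adjusted p = 0.00414, but 0.212 without experiment 2), and at the highest the change was 0.20 ± 0.09 (adjusted p = 0.0851). With colcemid it was 6.42, 6.44 and 6.34 at the highest labelled dose against 6.06, 6.16 and 6.08 in untreated cells. The rises were 0.24 ± 0.08, 0.26 ± 0.08 and 0.30 ± 0.08 from low to high dose (adjusted p = 0.0261, 0.0167 and 0.00606). They were lost without experiment 1 (0.297, 0.259 and 0.117) and, at the lower doses, without experiment 3 (0.0537 and 0.0519). Of the other 2 probe sets, with means of 5.01 each, 1 changed by -0.01 ± 0.10, -0.01 ± 0.10 and -0.06 ± 0.10 with the 3 colcemid doses, the opposite sign, none called, and the other by 0.30 ± 0.09, called (adjusted p over all single-gene probe sets = 0.0208), 0.15 ± 0.09 and 0.16 ± 0.09, not called. With the lowest vincristine dose they changed by 0.08 ± 0.07, not called, and 0.23 ± 0.08 (adjusted p = 0.0497), and with the middle dose by 0.20 ± 0.07 (adjusted p = 0.0492) and 0.06 ± 0.08, not called. No FA, MMS or EMS dose gave a call at either time for the brightest probe set, with changes from -0.15 to 0.19, and from -0.05 to 0.17 with FA at 4 h without the untreated array that stood apart. Under other settings 320 µM MMS at 24 h was called, with repeated quantile normalization (adjusted p from limma = 0.0252) and without experiment 3 (0.0350). Without experiment 3, 200 µM FA at 4 h was called as well (0.0424).

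NR4A2 was dimmer, with a mean of 5.05 over all arrays, and enters only the fit without the brightness filter. With 200 µM FA at 4 h it was 5.70, 5.37 and 5.38 against 4.41, 4.55 and 4.69 in untreated cells. The groups did not overlap, and the change was 0.94 ± 0.15 (adjusted p = 2.96e-05 over 19775 genes), with 1.03 ± 0.17 and 1.12 ± 0.11 in its other probe sets. With the untreated array that stood apart left out these were 1.01 (adjusted p = 7.96e-05), 0.92 and 1.22. In the same fit it rose with 320 µM MMS by 0.57 ± 0.16 at 4 h (adjusted p = 0.0164) and 0.55 ± 0.16 at 24 h (adjusted p = 0.0091), with 1 and 2 mM EMS at 24 h by 0.28 ± 0.09 (adjusted p = 0.0437) and 0.39 ± 0.09 (adjusted p = 0.00266), and not with 4 mM (0.03 ± 0.09). With the highest labelled doses at 24 h it rose by 0.60 ± 0.07 with colcemid (adjusted p = 2.47e-06) and 0.39 ± 0.13 with vincristine (adjusted p = 0.0235). Its signal lay under the brightness limit throughout, so these sizes are not set against those of brighter genes. The marker sums given with EGR3 for 1 and 2 mM EMS at 24 h moved as well, and their part was not tested.

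**Figure D3:**
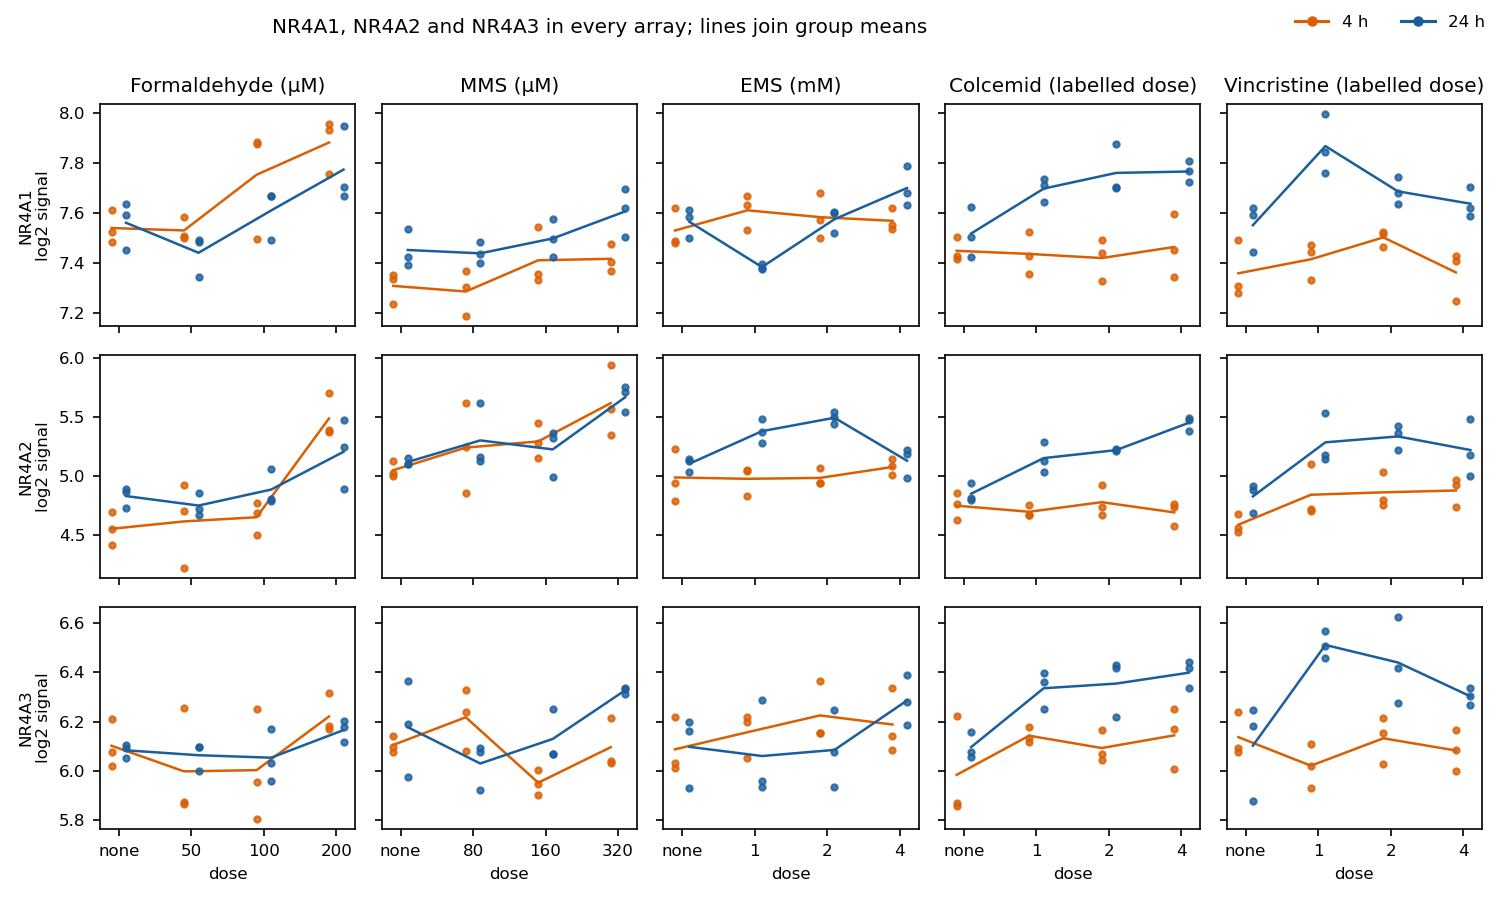
Log2 signal of NR4A1, NR4A2 and NR4A3 in each array (points) by dose, with lines through the group means, at 4 h (orange) and 24 h (blue), 1 column of panels per chemical; "none" is untreated. NR4A2 rose to 5.37 to 5.70 with 200 µM FA at 4 h, and NR4A1 and NR4A3 group means spanned only 0.60 and 0.56.

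IER2 was bright, with a mean of 11.13 and group means that spanned 1.71. It rose with FA at 4 h and fell with MMS and EMS at 24 h.

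With FA at 4 h IER2 was 11.62, 11.41 and 11.62 at 100 µM and 12.36, 12.36 and 12.40 at 200 µM, against 10.94, 10.995 and 10.82 in untreated cells. The 3 groups did not overlap. The changes were 0.63 ± 0.07 at 100 µM (adjusted p = 1.17e-07) and 1.46 ± 0.07, or 2.74-fold, at 200 µM (adjusted p = 1.13e-13). The 200 µM level exceeded the 100 µM level by 0.82 ± 0.07 (adjusted p = 1.56e-09). Without the untreated array of experiment 3 they were 0.58 and 1.41. The marker sums given with EGR1 moved with this dose and time as well, and their part in the result was not tested. At 24 h IER2 was 11.49, 11.39 and 11.62 with 200 µM FA against 11.39, 11.48 and 11.40 in untreated cells, which overlap, and no dose was called.

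In the MMS set at 24 h IER2 was 11.24, 11.13 and 11.23 in untreated cells, 10.93, 10.92 and 10.89 at 80 µM, 10.71, 10.59 and 10.69 at 160 µM and 11.04, 11.19 and 11.08 at 320 µM. Both lower doses lay below the untreated arrays and the highest overlapped them. The changes were -0.28 ± 0.05 (adjusted p = 0.000225), -0.54 ± 0.05 (adjusted p = 1.51e-08) and -0.09 ± 0.05 (adjusted p = 0.115), and the 320 µM level exceeded the 160 µM level by 0.44 ± 0.05 (adjusted p = 4.15e-07). With EMS at 24 h the fall deepened with dose. It was -0.14 ± 0.04 at 1 mM (adjusted p = 0.0184), -0.27 ± 0.04 at 2 mM (adjusted p = 2.24e-05) and -0.59 ± 0.04, or 1.5-fold lower, at 4 mM (adjusted p = 1.23e-10), where the values were 10.75, 10.70 and 10.66 against 11.28, 11.32 and 11.28 in untreated cells. The 1 mM call was lost without any 1 of the 3 experiments (0.154, 0.154 and 0.0814). Marker sums moved as well, as given with EGR3 for 1 and 2 mM and with EGR1 for 4 mM. Their part in these falls was not tested. At 4 h IER2 rose by 0.16 ± 0.05 with 320 µM MMS (adjusted p = 0.0242, but 0.130 and 0.234 without experiments 1 and 3) and by 0.19 ± 0.04 with 4 mM EMS (adjusted p = 0.00427, but 0.129 and 0.0949 without experiments 1 and 3).

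With colcemid at 24 h IER2 was 11.58, 11.68 and 11.63 at the highest labelled dose against 11.32, 11.43 and 11.29 in untreated cells, a rise of 0.28 ± 0.05 (adjusted p = 5.34e-05). That dose exceeded the middle one by 0.18 ± 0.05 (adjusted p = 0.0205, not called without any 1 of the experiments; 6.87% of genes differed). At the middle dose the change was 0.10 ± 0.05 (adjusted p = 0.0961, and 0.0247 with the block). At 4 h the highest dose gave 0.17 ± 0.05 (adjusted p = 0.117, and 0.0149 with the block). With vincristine at 24 h it rose by 0.19 ± 0.05 at the middle dose (adjusted p = 0.00645, but 0.0507 without experiment 1), and the highest dose gave 0.12 ± 0.05 (adjusted p = 0.0978, and 0.0358 with the block).

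IER3, also bright with a mean of 11.53, moved apart from the others: it rose at 24 h with FA, colcemid and vincristine, and fell with MMS at both times and with EMS at 24 h.

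With FA at 4 h IER3 was 11.84, 11.76 and 11.97 at 100 µM and 11.17, 11.18 and 11.29 at 200 µM, against 11.46, 11.47 and 11.54 in untreated cells. The 100 µM arrays lay above and the 200 µM arrays below the untreated ones. The changes were 0.37 ± 0.08 (adjusted p = 0.000556) and -0.27 ± 0.08 (adjusted p = 0.00538, but 0.0651 without experiment 1), and the 2 doses differed by -0.64 ± 0.08, 200 µM minus 100 µM (adjusted p = 6.65e-07). Without the untreated array that stood apart they were 0.39 and -0.25, both called. The marker sums given with EGR1 for 100 and 200 µM FA at 4 h moved as well, and their part in these changes was not tested. At 24 h IER3 was 11.83, 11.71 and 11.88 with 200 µM FA against 10.91, 11.12 and 10.87 in untreated cells, with no overlap. It rose by 0.84 ± 0.08, or 1.79-fold (adjusted p = 8.78e-09), and by 0.69 ± 0.08 over 100 µM (adjusted p = 2.19e-07; 42.8% of genes differed between these doses). The ACTB difference was 0.71 to 0.85 with 200 µM FA at 24 h, against 0.46 to 0.51 in untreated cells. The summed signals of the B cell markers, 26293 to 27674 against 28240 to 29193, and of the T and NK cell markers, 576 to 617 against 629 to 636, were lower there. Their part in the result was not tested.

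With MMS IER3 was 11.50, 11.50 and 11.59 at 320 µM and 4 h against 11.90, 11.93 and 12.07 in untreated cells, a fall of 0.44 (change of -0.44 ± 0.07, adjusted p = 5.58e-05). At 160 µM the change at 4 h was -0.19 ± 0.07 (adjusted p = 0.087, and 0.00459 with the block). At 24 h it was 10.77, 10.91 and 10.92 at 320 µM against 11.30, 11.46 and 11.52 in untreated cells. The changes there were -0.53 ± 0.07 at 160 µM (adjusted p = 2.16e-06) and -0.56 ± 0.07 at 320 µM (adjusted p = 5.17e-07). With 4 mM EMS at 24 h it was 10.96, 11.03 and 11.02 against 11.25, 11.46 and 11.41 in untreated cells, a change of -0.37 ± 0.05 (adjusted p = 1.15e-06), and 2 mM gave -0.12 ± 0.05 (adjusted p = 0.0648, and 0.0326 with the block).

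In the vincristine set at 24 h IER3 was 10.66, 10.94 and 10.81 in untreated cells, 11.49, 11.68 and 11.55 at the lowest, 11.81, 11.96 and 11.96 at the middle and 11.91, 12.02 and 11.88 at the highest labelled dose. All dosed arrays lay above the untreated ones, and the lowest dose lay below the others. The changes were 0.77 ± 0.07, 1.11 ± 0.07 and 1.13 ± 0.07 (adjusted p = 9.68e-09, 4.34e-11 and 2.75e-11). With colcemid they were 0.55 ± 0.06, 0.68 ± 0.06 and 0.85 ± 0.06 (adjusted p = 1.34e-07, 6.26e-09 and 2.61e-10), and IER3 was 11.66, 11.74 and 11.65 at the highest labelled dose against 10.73, 10.98 and 10.78 in untreated cells. At 4 h the highest colcemid dose raised it by 0.28 ± 0.06 (adjusted p = 0.0116), a call lost without experiment 1 (0.212) and without experiment 3 (0.418). The ACTB difference was 0.379 to 0.387 there, against 0.299 to 0.356 in untreated cells. The monocyte and granulocyte marker sums were higher, 647 to 681 against 613 to 641, and those of the other lists overlapped. Their part in the result was not tested.

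**Figure D4:**
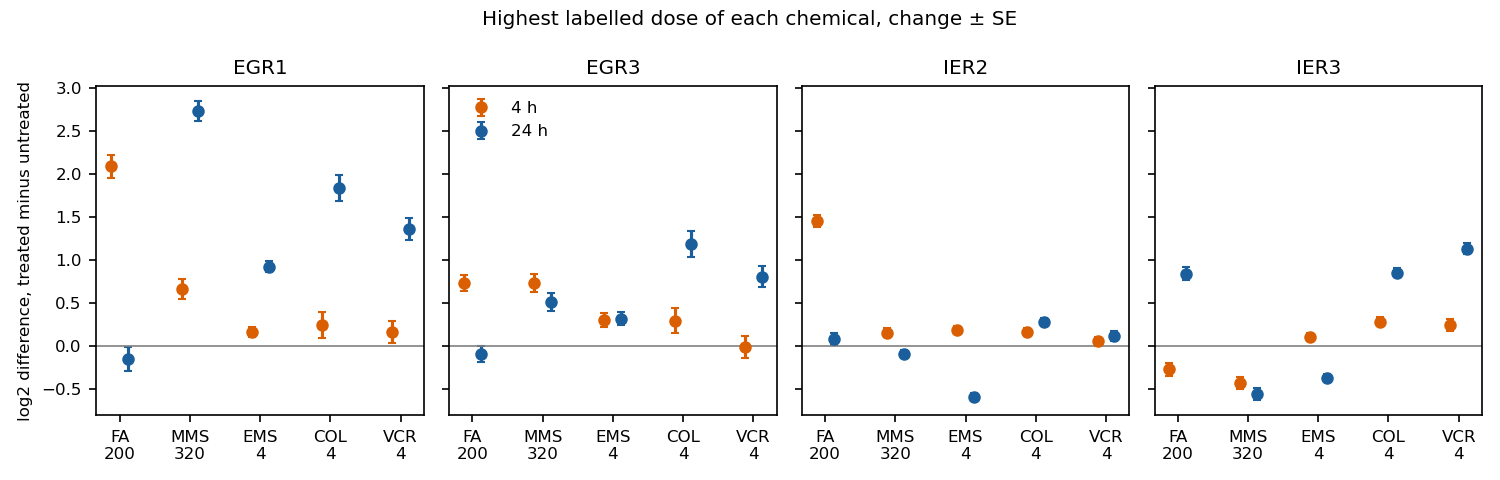
Change from untreated cells at the highest labelled dose of each chemical, with its SE, for EGR1, EGR3, IER2 and IER3 at 4 h (orange) and 24 h (blue); doses are in the units of the text. IER3 changed by 0.84 with FA, 0.85 with colcemid and 1.13 with vincristine at 24 h, and by -0.56 with MMS and -0.37 with EMS.

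With FA at 4 h, 0, 4 and 4 of the 6 tested members rose and 0, 0 and 1 fell at 50, 100 and 200 µM. Of all genes, 0.214%, 20.9% and 29.6% rose and 0.606%, 19.8% and 24.2% fell there, 0.82%, 40.7% and 53.8% in all. Leaving out the untreated array that stood apart, the member counts were 0, 4 and 4 higher and 0, 0 and 1 lower, and 0.178%, 37% and 49.8% of all genes were called. Where none was called, limma gave an unadjusted p under 0.05 for 1 at 50 µM. With FA at 24 h, 0, 0 and 1 of the 6 tested members rose and 0, 0 and 0 fell at 50, 100 and 200 µM. Of all genes, 0%, 3.42% and 23.8% rose and 0%, 0.385% and 23.9% fell there, 0%, 3.81% and 47.7% in all. Where none was called, limma gave an unadjusted p under 0.05 for 0 at 50 µM and 0 at 100 µM. With FA at 24 h and 50 µM, where no gene of the 14023 was called, 385 had an unadjusted p under 0.05 in limma.

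With MMS at 4 h, 0, 1 and 3 of the 6 tested members rose and 0, 0 and 1 fell at 80, 160 and 320 µM. Of all genes, 0.62%, 6.97% and 15.3% rose and 0.984%, 6.57% and 13.4% fell there, 1.6%, 13.5% and 28.6% in all. Where none was called, limma gave an unadjusted p under 0.05 for 0 at 80 µM. With MMS at 24 h, 0, 1 and 2 of the 6 tested members rose and 1, 3 and 1 fell at 80, 160 and 320 µM. Of all genes, 17.6%, 25.7% and 30.8% rose and 10.9%, 21.6% and 27.7% fell there, 28.5%, 47.3% and 58.5% in all. With EMS at 4 h, 0, 0 and 2 of the 6 tested members rose and 0, 0 and 0 fell at 1, 2 and 4 mM. Of all genes, 0.107%, 0.72% and 5.55% rose and 0.0357%, 0.335% and 4.05% fell there, 0.143%, 1.06% and 9.6% in all. Where none was called, limma gave an unadjusted p under 0.05 for 0 at 1 mM and 3 at 2 mM. With EMS at 24 h, 0, 0 and 3 of the 6 tested members rose and 3, 2 and 2 fell at 1, 2 and 4 mM. Of all genes, 15.4%, 19.9% and 27.8% rose and 8.94%, 14.7% and 23.6% fell there, 24.3%, 34.6% and 51.5% in all.

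With colcemid at 4 h, 0, 0 and 1 of the 6 tested members rose and 0, 0 and 0 fell at the lowest, middle and highest labelled dose. Of all genes, 0%, 0.0214% and 0.806% rose and 0%, 0.0428% and 0.107% fell there, 0%, 0.0642% and 0.913% in all. Where none was called, limma gave an unadjusted p under 0.05 for 0 at the lowest dose and 1 at the middle dose. With colcemid at 24 h, 5, 5 and 6 of the 6 tested members rose and 0, 0 and 0 fell at the lowest, middle and highest labelled dose. Of all genes, 16.6%, 17.4% and 18% rose and 20.7%, 20.3% and 18.3% fell there, 37.3%, 37.7% and 36.4% in all. With vincristine at 4 h, 0, 0 and 0 of the 6 tested members rose and 0, 0 and 0 fell at the lowest, middle and highest labelled dose. Of all genes, 0%, 0% and 0.185% rose and 0%, 0.00713% and 0.0642% fell there, 0%, 0.00713% and 0.25% in all. Where none was called, limma gave an unadjusted p under 0.05 for 0 at the lowest dose, 2 at the middle dose and 1 at the highest dose. With vincristine at 24 h, 5, 5 and 3 of the 6 tested members rose and 0, 0 and 0 fell at the lowest, middle and highest labelled dose. Of all genes, 16.6%, 17.4% and 17.5% rose and 20.8%, 19.5% and 18.2% fell there, 37.4%, 36.9% and 35.7% in all. At the lowest dose at 4 h, where no gene of the 14023 was called, 265 with colcemid and 511 with vincristine had an unadjusted p under 0.05 in limma. At 24 h every called member rose with both agents, and the share of the 6 that rose was above the share of all genes that rose at each dose. The members were chosen with earlier results of these data known, so this is a description and not a test. Several NR4A1 and NR4A3 calls counted there were lost without single experiments, as given above. With the mean of probe sets the NR4A1 calls at the lowest and highest colcemid dose were lost (limma adjusted p = 0.453 and 0.145). So was that at the lowest vincristine dose (0.133). Of the other NR4A3 probe sets, 1 had the opposite sign at the 3 colcemid doses.

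The difference between times was tested itself at the highest doses, as the change at 24 h minus the change at 4 h. For EGR1 it was -2.24 ± 0.19 with FA (adjusted p = 2.82e-09), against 2.07 ± 0.17 with MMS, 0.76 ± 0.09 with EMS, 1.59 ± 0.21 with colcemid and 1.202 ± 0.18 with vincristine (adjusted p = 2.2e-09, 5.34e-07, 1.25e-05 and 5e-05). The EGR1 change was thus larger at 4 h with FA and larger at 24 h with the other 4 chemicals. In the FA set both groups moved between the times. The EGR1 mean was 8.18 at 4 h and 7.15 at 24 h with 200 µM FA. In untreated cells it was 6.09 at 4 h, with the array that stood apart, and 7.30 at 24 h. The share of all genes whose change differed between times at these doses was 53.3% with FA, 45.2% with MMS, 38.3% with EMS, 22.5% with colcemid and 22.4% with vincristine. IER2 had -1.37 ± 0.09 with FA (adjusted p = 9.07e-11), and IER3 had the opposite sign, 1.11 ± 0.11 (adjusted p = 2.27e-08). Without the untreated array that stood apart these differences between times with FA were -2.05 for EGR1, -1.32 for IER2 and 1.09 for IER3. At 100 µM FA the differences were already -0.84 ± 0.19 for EGR1 (adjusted p = 0.00203, but 0.0781 without experiment 1), -1.24 ± 0.13 for EGR3 (adjusted p = 3.23e-07) and -0.69 ± 0.09 for IER2 (adjusted p = 9.3e-06), where 26.6% of all genes differed. They were -0.65, -1.16 and -0.64 without the untreated array that stood apart, all 3 called.

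The FA change was also compared with that of each other chemical, in fits of 48 arrays. These are differences between the tested conditions and not between potencies, since doses are not matched, and chemical and set cannot be told apart beyond the set's own untreated arrays. The comparisons share the FA arrays. At 4 h EGR1 changed more with 200 µM FA than with the highest dose of MMS, EMS, colcemid and vincristine by 1.43 ± 0.19, 1.93 ± 0.15, 1.84 ± 0.21 and 1.93 ± 0.20 (adjusted p = 6.73e-08, 3.98e-13, 2.49e-09 and 1.43e-10). IER2 changed more by 1.30 ± 0.08, 1.26 ± 0.08, 1.29 ± 0.08 and 1.40 ± 0.08 (adjusted p = 5.49e-16, 1.82e-16, 3.31e-16 and 1.07e-16). In these comparisons 39.8%, 42.1%, 43.3% and 43.4% of all genes differed. Without the untreated FA array that stood apart, the differences were 1.23, 1.73, 1.65 and 1.74 for EGR1 and 1.25, 1.21, 1.24 and 1.35 for IER2, all called. At 24 h the sign for EGR1 was the opposite, at -2.88 ± 0.19, -1.08 ± 0.15, -1.99 ± 0.21 and -1.52 ± 0.20 (adjusted p = 3.81e-15, 1.44e-06, 1.02e-09 and 5.67e-08), where 36%, 24.7%, 32.7% and 34.5% of all genes differed. For IER3 at 24 h FA exceeded MMS by 1.40 ± 0.11 (adjusted p = 2.15e-13) and EMS by 1.21 ± 0.09 (adjusted p = 8.36e-13).

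MMS and EMS differ by a methyl in place of an ethyl group, and their doses differ, so their changes are set side by side without a comparison. At the highest dose and 24 h, EGR1 changed by 2.73 with MMS and 0.92 with EMS, EGR3 by 0.51 and 0.32, IER2 by -0.09 and -0.59, and IER3 by -0.56 and -0.37. At 4 h EGR1 changed by 0.66 and 0.16 and EGR3 by 0.73 and 0.30, in the same order.

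Levels in untreated cells moved with time in culture, and every change above is relative to them. IER2 was higher at 24 h than at 4 h in all 5 sets, by 0.40 to 0.50, and IER3 lower in all 5 (changes of -0.76 to -0.52); each was called in each set. EGR1 was higher at 24 h in the FA set by 1.22 ± 0.14 (adjusted p = 7.35e-07), in the colcemid set by 0.72 ± 0.15 (adjusted p = 0.00068) and in the vincristine set by 0.77 ± 0.13 (adjusted p = 7.7e-05). In the MMS and EMS sets it was not called. EGR3 was higher at 24 h in the FA set by 0.50 ± 0.09 (adjusted p = 0.000249) and the vincristine set by 0.39 ± 0.13 (adjusted p = 0.0191, but 0.168 without experiment 3), and lower in the MMS and EMS sets by 0.69 and 0.31 (changes of -0.69 ± 0.11 and -0.31 ± 0.08, adjusted p = 4.47e-05 and 0.00382). Without the untreated FA array that stood apart, the differences in the FA set were 1.02 for EGR1, 0.42 for EGR3, 0.45 for IER2 and -0.50 for IER3, all 4 called. NR4A1 was higher at 24 h in the vincristine set by 0.19 ± 0.07 (adjusted p = 0.035, but 0.133 and 0.358 without experiments 1 and 2), and in the MMS set the difference was 0.14 ± 0.07 (adjusted p = 0.103, and 0.0437 with the block). Of all genes, 29.5% in the FA set, 32.2% in the MMS set, 29.9% in the EMS set, 35% in the colcemid set and 32.9% in the vincristine set differed between the times. Untreated EGR3 at 4 h was higher in every array of the MMS and EMS sets than in the other sets, at 7.76 ± 0.09 and 7.55 ± 0.12 against 6.82 ± 0.15, 6.86 ± 0.37 and 6.91 ± 0.12 in the FA, colcemid and vincristine sets (SD, n = 3 each).

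**Figure D5:**
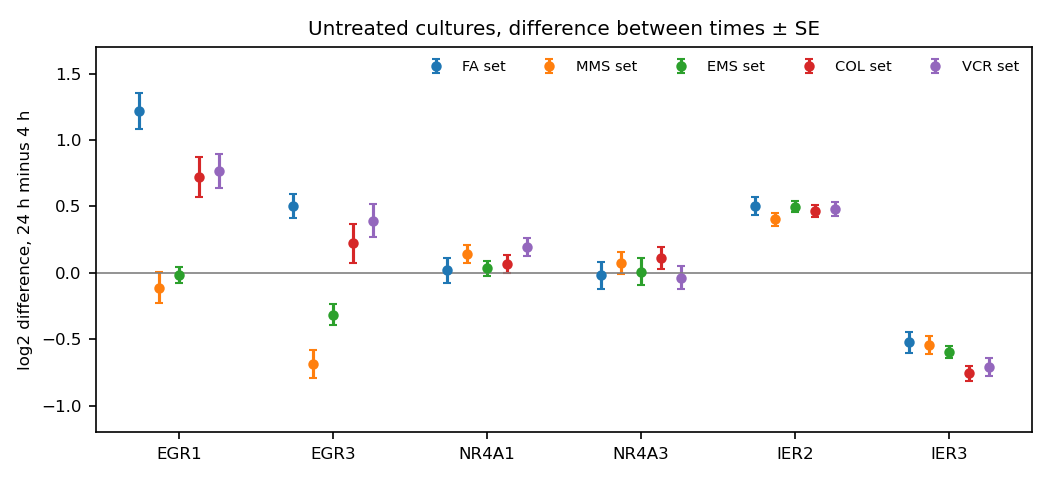
Difference between untreated cultures at 24 h and at 4 h, with its SE, for the 6 tested members in the 5 sets (colours). IER2 lies between 0.40 and 0.50 and IER3 between -0.76 and -0.52 in every set, while EGR1 is 1.22 in the FA set and near 0 in the MMS and EMS sets.

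Of a list of 30 other immediate early genes, 25 were tested. At 4 h 17 rose and 3 fell with 200 µM FA, with a list median of 0.39 against 0.08 over all genes, of which 29.6% rose and 24.2% fell. In the fit that left out the untreated array that stood apart, 16 rose and 3 fell. ATF3, a stress-induced factor of the ATF family, rose by 2.89 ± 0.15, JUN and FOS, which form the AP-1 dimer, by 2.28 ± 0.07 and 1.83 ± 0.12, and TRIB1, a pseudokinase, fell by 2.29 (change of -2.29 ± 0.08; adjusted p between 4.07e-11 and 4.71e-16 for the 4). These were 2.78, 2.31, 1.69 and -2.31 without that array. With 320 µM MMS 10 rose and 5 fell at 4 h, where 15.3% of all genes rose and 13.4% fell, and 16 rose and 4 fell at 24 h, where 30.8% rose and 27.7% fell. At 24 h ATF3 rose by 3.42 ± 0.08, JUN by 1.80 ± 0.06 and KLF10 by 1.61 ± 0.08 while MYC fell by 1.86 (change of -1.86 ± 0.06). With 200 µM FA at 24 h, where EGR1 was not called, 16 of the 25 rose and 4 fell, against 23.8% and 23.9% of all genes, and among the risers were ATF3 by 3.21 ± 0.15 and JUN by 1.46 ± 0.07. ATF3 and JUN were thus called at both times with FA, and EGR1 and IER2 at 4 h.

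With 4 mM EMS 10 rose and 1 fell at 4 h, where 5.55% of all genes rose and 4.05% fell, and 12 rose and 4 fell at 24 h, where 27.8% rose and 23.6% fell. With the highest labelled dose of colcemid 7 rose and 0 fell at 4 h, led by KLF6 (1.06 ± 0.06) and JUND (0.68 ± 0.04), a time when EGR1 was not called, and 16 rose and 2 fell at 24 h. Of all genes 0.806% rose and 0.107% fell at 4 h, and 18% rose and 18.3% fell at 24 h. With that of vincristine 3 rose and 0 fell at 4 h and 13 rose and 2 fell at 24 h, led by JUN (1.75 ± 0.07) and ATF3 (1.49 ± 0.10). Of all genes 0.185% rose and 0.0642% fell at 4 h, and 17.5% rose and 18.2% fell at 24 h. The ACTB difference and marker sums given with IER3 for the highest colcemid dose at 4 h moved as well. Their part in these counts was not tested.

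Of 13 factors upstream of or partnered with EGR proteins, 11 were tested. With FA at 4 h 0 rose and 5 fell at 100 µM, where 20.9% of all genes rose and 19.8% fell, and 2 rose and 6 fell at 200 µM, where 29.6% rose and 24.2% fell. The list medians were -0.11 and -0.23, against 0.04 and 0.08 over all genes, and the counts were the same without the untreated array that stood apart. The called share at 100 µM is near the 40.7% of all genes called there. MRTFB, an SRF coactivator, changed by -1.40 ± 0.10 at 100 µM, and NAB1, a corepressor that binds EGR proteins, by -1.15 ± 0.06 at 200 µM. Of 11 ERK feedback genes, 3 rose and 5 fell with 200 µM FA at 4 h, and 1 rose and 5 fell without that array. Among those that fell were SPRED2 (-1.96 ± 0.11) and SPRED1 (-1.74 ± 0.10), inhibitors of the RAS to RAF step. With 320 µM MMS at 4 h 1 of the 11 rose and 6 fell, where 15.3% of all genes rose and 13.4% fell. With the highest labelled dose of colcemid at 24 h 5 rose and 1 fell, where 18% of all genes rose and 18.3% fell. DUSP4, an ERK phosphatase, changed by 0.71 ± 0.07 with that colcemid dose. Of 9 tested ERK pathway kinases 4 rose and 2 fell with 200 µM FA at 4 h, and of 6 tested JNK and p38 kinases 2 rose and 2 fell, where 53.8% of all genes were called. Without that array 6 rose and 2 fell of the 9, and 1 rose and 2 fell of the 6, where 49.8% of all genes were called. Of the NR4A dimer partners, RXRA fell by 0.66 (change of -0.66 ± 0.07) and RXRB rose by 0.24 ± 0.06 with 200 µM FA at 4 h. Leaving out that array gave -1.44 for MRTFB, -1.16 for NAB1, -1.91 for SPRED2, -1.68 for SPRED1, -0.64 for RXRA and 0.18 for RXRB, all 6 called. The marker sums given with EGR1 for 200 µM FA at 4 h moved with these lists as well, and their part in the results was not tested.

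As a description over 120 arrays, with the mean of each set subtracted, the members correlated with each other to different degrees. EGR1 went with NR4A1 (Pearson's r = 0.69), IER2 (0.69), NR4A3 (0.64) and EGR3 (0.63), and not with IER3 (-0.20). The genes most like EGR1 were the histone gene H2BC21 (0.88), REXO2 (0.87) and the histone gene H2AC6 (0.87). Those most like IER3 were CCL20 (0.92), RIPK2 (0.91) and IL6 (0.90), and those most like EGR3 were ZNHIT6 (0.86), SPRING1 (0.86) and UBFD1 (0.85). H2BC21 led for NR4A1 as well (0.76), followed by ATP6V0C (0.70) and EGR1 (0.69); EGR1 led for NR4A3 (0.64), followed by H2BC21 (0.64) and FOSB (0.61); and GGCX (0.78), THAP2 (0.78) and HNRNPD-DT (0.77) led for IER2. These points share arrays, doses and the normalization, so the values describe likeness of pattern only.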

How the data were processed

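Expression was measured on Affymetrix HG-U133 Plus 2 arrays of TK6 cells. The deposited log2 values come from RMA, which the submitters' processing notes name; the software version, and whether all arrays were normalised together, are not given in the sources used here. RMA as usually run equalises the distribution of values between arrays, so a shift shared by most genes would not be visible. Of the probe sets, 41091 have 1 gene symbol in the platform annotation, 1801 several and 11721 none; only those with 1 were used, 1 per gene, the one with the highest mean. Groups are 3 arrays each; the number of arrays limits precision.

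Genes under a log2 value of 6.18 (the median probe set mean) in all but fewer than 3 arrays were left out. Each set of 24 arrays was fitted with group means in limma 3.58.1 (lmFit and eBayes, R 4.3.3, two-sided), and adjusted by Benjamini-Hochberg within each comparison; the procedure was tested on simulated data. The members and gene lists were chosen with earlier results of these data known. All members are named, at most 4 called genes per list with the largest change, and the 3 genes most correlated with each member. The labels' experiment number was taken to mark a shared experiment: in 29 of 30 comparisons the mean correlation of same-numbered deviations was above 0 (median 0.29), and every pair exceeded 0.1 in 19. Alternatives were the experiment block, no filter, the mean of probe sets, repeated quantile normalization, 1 fit of all arrays, other probe sets, leaving out each experiment and leaving out the array that stood apart; the last was added after the data were seen for all but the dose comparisons of the tested members.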

Additional observations from a re-analysis of the deposited data

Results flagged for a closer look

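Differences between times at the highest labelled doses, and between FA and another chemical, are listed for every member and condition where the test of the difference itself had an adjusted p under 0.05 (limma). Changes at 24 h minus changes at 4 h were -2.24 (EGR1), -0.83 (EGR3), -1.37 (IER2) and 1.11 (IER3) with 200 µM FA. They were 2.07 (EGR1) and -0.25 (IER2) with 320 µM MMS, and 0.76 (EGR1), -0.78 (IER2) and -0.47 (IER3) with 4 mM EMS. They were 1.59 (EGR1), 0.89 (EGR3) and 0.57 (IER3) with colcemid, and 1.202 (EGR1), 0.82 (EGR3) and 0.89 (IER3) with vincristine. The IER2 value with MMS was not called without experiment 1 (adjusted p = 0.118) or 3 (0.150), and the EGR3 value with colcemid not without experiment 1 (0.0825) or 2 (0.0689). Without the untreated FA array that stood apart the 4 FA values were -2.05, -0.74, -1.32 and 1.09, all called.

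At 4 h the FA change exceeded the change with MMS by 1.43 (EGR1) and 1.30 (IER2). Against EMS the difference was 1.93 (EGR1), 0.43 (EGR3), 0.30 (NR4A1), 1.26 (IER2) and -0.38 (IER3). Against colcemid it was 1.84 (EGR1), 0.44 (EGR3), 0.33 (NR4A1), 1.29 (IER2) and -0.56 (IER3), and against vincristine 1.93 (EGR1), 0.75 (EGR3), 0.34 (NR4A1), 1.40 (IER2) and -0.51 (IER3). Without the untreated FA array that stood apart these were, in the same order of genes, 1.23 and 1.25 against MMS, 1.73, 0.35, 0.30, 1.21 and -0.35 against EMS, 1.65, 0.36, 0.32, 1.24 and -0.53 against colcemid, and 1.74, 0.66, 0.33, 1.35 and -0.49 against vincristine. EGR3 against colcemid was not called without the untreated FA array that stood apart (0.36, adjusted p = 0.131), nor without experiment 1 (0.287) or 2 (0.195), and EGR3 against EMS not without experiment 3 (0.0659). NR4A1 was not called without experiment 2 or 3 against EMS (0.117 and 0.178), colcemid (0.190 and 0.0572) or vincristine (0.0671 and 0.340).

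At 24 h the differences were -2.88 (EGR1), -0.60 (EGR3) and 1.40 (IER3) against MMS, and -1.08 (EGR1), -0.41 (EGR3), 0.67 (IER2) and 1.21 (IER3) against EMS. They were -1.99 (EGR1) and -1.28 (EGR3) against colcemid, and -1.52 (EGR1), -0.90 (EGR3) and -0.29 (IER3) against vincristine. EGR3 against EMS was not called without experiment 2 (0.335) or 3 (0.0725), and IER3 against vincristine not without experiment 1 (0.169) or 2 (0.170). The difference in IER2 between FA and colcemid at 24 h was -0.20 and called with the replicate block (adjusted p = 0.0384) and not without it (0.0524).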

How the results depend on the processing

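Of 3442 values recomputed for the 6 tested members under other settings, 3228 kept their side of the threshold, 140 lost and 66 gained a call, and 8 called values changed sign. A value that was not called could change sign and still count among the 3228. EGR1 with 50 µM FA at 4 h did so, positive in the main fit and -0.02 without the untreated array that stood apart. The 8 are all values of other probe sets at 24 h: NR4A1 with 1 mM EMS (0.0179), 4 mM EMS (-0.11), the lowest colcemid dose (-0.0654) and the lowest vincristine dose (-0.0108 and -0.0179), and NR4A3 with the 3 colcemid doses (-0.00796, -0.0086 and -0.0638). With the replicate block 20 of 408 values gained and 0 lost a call; those among the comparisons with untreated cells stand in the text, and the block changed no other call there. The number of members called with 200 µM FA at 24 h was 1, and 2 with the block and in 1 fit of all arrays (leaving out an experiment: 1 to 2). With 320 µM MMS at 24 h it was 3 (3 to 5), with 4 mM EMS at 4 h 2, and 1 in 1 fit of all arrays (0 to 1), and with the highest colcemid dose at 4 h 1, and 2 with the block (0 to 1). With the highest colcemid dose at 24 h it was 6, and NR4A1 and NR4A3 were not called without experiment 1. With 4 mM EMS at 24 h it was 5. The NR4A1 call there was lost without the brightness filter, with the mean of probe sets, with repeated quantile normalization and in 1 fit of all arrays. Without the brightness filter, 19775 genes in place of 14023 were adjusted for and 9 calls were lost. The causes were not tested. Dim signal limits NR4A2 and NR4A3.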
